A study of Mus musculus with 10 samples.

Results

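Polycomb repressive complex 2 (PRC2) was followed at the mRNA level through 10 genes across 5 lines of mouse embryonic stem cells (ESCs). The genes were taken by name as subunits of the complex, and they are 10 of the 21853 protein-coding genes listed in the expression tables. They comprise the core genes Eed, Suz12, Ezh2, Ezh1 and Rbbp4, the PRC2.1 accessory genes Mtf2, Epop and Phf19, and the PRC2.2 accessory genes Jarid2 and Aebp2. Bulk RNA sequencing gave 2 libraries per line and 10 in all. Naïve ESCs were wild-type J1 cells. AKO carried a knockout of AMPK (Prkaa1, the catalytic subunit alpha 1 of the energy sensor AMP-activated protein kinase), GKO a knockout of Gys1 (the muscle-type glycogen synthase), and DKO both knockouts. These 4 lines were grown on gelatin in serum with 1000 U/ml mLIF, 1 µM of the MEK inhibitor PD0325901 and 3 µM of the GSK3 inhibitor CHIR99021. Primed ESCs (PJ1) were wild-type as well, but were grown on Matrigel without serum or inhibitors. Their medium held serum replacement, 10 ng/ml bFgf and 20 ng/ml Activin. Medium, substrate and pluripotent state therefore cannot be told apart in the primed comparison. The number of clones behind each knockout line is not stated in the sources used here, so p-values measure only the spread between these libraries.

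PRC2 methylates lysine 27 of histone H3, and the trimethylated form, H3K27me3, marks silent developmental genes in ESCs. Ezh2 or Ezh1 supplies the catalytic activity, Eed binds the finished mark and stimulates the enzyme, and Suz12 is the scaffold that holds the core together and receives the accessory subunits. PRC2.1 carries a Polycomb-like protein such as Mtf2 or Phf19, which binds unmethylated CpG-rich DNA, and may carry Epop. PRC2.2 instead carries Jarid2 and Aebp2, which contact nucleosomes that Polycomb repressive complex 1 (PRC1) has ubiquitinated. ESCs that lack a core subunit can still self-renew but differentiate poorly.

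Values were TPM, a relative level of transcripts that is corrected for transcript length, so that levels of different genes can be set side by side. The listed genes summed to between 500162 and 578952 TPM per library. The read depth is unknown, because TPM does not keep it. The median gene differed between the 2 libraries of a line by 0.0555 to 0.0704 on the log2(TPM + 1) scale in the J1 lines and by 0.127 in primed ESCs. Markers of naïve ESCs, 8 genes, summed to 1664 to 1945 TPM in the 4 J1 lines and to 137 to 139 TPM in primed ESCs, while 7 markers of primed ESCs summed to 43.8 to 71.4 TPM in the J1 lines and to 425 to 466 TPM in primed ESCs. The level of Prkaa1 was 15.5 and 16.6 TPM in the naïve libraries, but 7.24 and 6.94 TPM in AKO, and 2.30 and 2.04 TPM where both genes were targeted. That of Gys1 was 11.5 and 10.8 TPM in the naïve libraries, against 9.70 and 9.98 TPM in GKO and 12.1 and 11.7 TPM with both knockouts, so its mRNA does not check the Gys1 knockout. The libraries stood apart in another respect: all 4 tested genes of the Y chromosome were listed at 0 in the naïve, AKO and primed libraries, but summed to 50.9 to 54.8 TPM in GKO and 65.1 to 67.8 TPM in DKO. Loss of Gys1 and presence of Y-linked RNA thus cannot be told apart in any comparison between GKO or DKO and the other lines. In bulk RNA, fewer cells of a type and less RNA per cell cannot be told apart either.

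The promoters of 5 members are shown, to set genes of unlike profile side by side: Eed and Mtf2 were much lower in primed ESCs, Ezh2 and Aebp2 moved in opposite directions in GKO and DKO, and Suz12 was highest in DKO, where Ezh2 was lowest. Each is the run of 250 bases before the transcription start, from RefSeq on GRCm38.p6 and written 5′ to 3′ along the gene. Of the 10 members, 9 were matched, all but Epop. Capitals mark exact matches, on either strand, to the searched motifs E2F (TTTCCCGC or TTTGGCGC), NF-Y (CCAAT) and the GC box (GGGCGG). For Aebp2 and Mtf2, which have 3 and 2 starts in the table, the most upstream start was used. The 5 windows are chr7:89980977-89981226 on the minus strand for Eed, chr11:79992856-79993105 on the plus strand for Suz12, chr6:47595031-47595280 on the minus strand for Ezh2, chr6:140622413-140622662 on the plus strand for Aebp2 and chr5:108065424-108065673 on the plus strand for Mtf2.
Eed: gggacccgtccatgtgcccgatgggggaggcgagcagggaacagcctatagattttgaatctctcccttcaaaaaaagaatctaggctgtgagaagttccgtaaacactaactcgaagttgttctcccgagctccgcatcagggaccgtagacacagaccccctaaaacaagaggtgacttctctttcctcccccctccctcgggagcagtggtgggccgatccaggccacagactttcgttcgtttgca
Suz12: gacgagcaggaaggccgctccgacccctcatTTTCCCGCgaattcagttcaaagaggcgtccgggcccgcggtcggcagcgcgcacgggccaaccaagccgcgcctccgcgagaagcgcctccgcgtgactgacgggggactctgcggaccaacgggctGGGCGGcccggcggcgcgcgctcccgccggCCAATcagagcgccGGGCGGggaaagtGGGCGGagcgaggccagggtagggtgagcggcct
Ezh2: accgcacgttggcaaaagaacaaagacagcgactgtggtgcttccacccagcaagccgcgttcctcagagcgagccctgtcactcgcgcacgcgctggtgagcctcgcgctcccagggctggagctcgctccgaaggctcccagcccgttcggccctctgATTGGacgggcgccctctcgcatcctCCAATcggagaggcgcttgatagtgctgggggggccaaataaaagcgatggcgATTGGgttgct
Aebp2: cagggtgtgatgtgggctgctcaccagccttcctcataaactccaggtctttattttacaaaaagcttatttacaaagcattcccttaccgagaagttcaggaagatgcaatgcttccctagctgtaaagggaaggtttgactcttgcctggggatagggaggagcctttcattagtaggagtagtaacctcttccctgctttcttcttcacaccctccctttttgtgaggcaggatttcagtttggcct
Mtf2: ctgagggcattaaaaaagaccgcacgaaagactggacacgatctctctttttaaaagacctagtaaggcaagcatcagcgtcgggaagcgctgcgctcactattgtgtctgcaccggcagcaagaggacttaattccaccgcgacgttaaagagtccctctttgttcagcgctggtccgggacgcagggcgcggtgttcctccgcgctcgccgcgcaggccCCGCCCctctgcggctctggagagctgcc

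Ezh2 held 3 CCAAT boxes, at 90 to 86, 64 to 60 and 11 to 7 bases before the start. At least 1 CCAAT stood in 34.5% of the 27025 promoters of the same length, and 3 or more in 2.98%. Suz12 held 1 E2F match, found in 1.35% of promoters, together with 1 CCAAT and 3 GC boxes, a motif found in 33% of promoters. Mtf2 held 1 GC box, and Eed and Aebp2 none of the motifs. The E-box (CACGTG, 6.04% of promoters), ETS (CCGGAAGT, 2.92%), CRE (TGACGTCA, 1.6%) and STAT (TTCCNGGAA, 0.918%) motifs were absent from all 5 windows. Suz12 had 37 CpG dinucleotides and 73.6% GC, against a median of 6 CpG and 52.0% GC over all promoters. Ezh2 and Mtf2 had 23 CpG each, Eed had 12 and Aebp2 had 1. These matches describe the letters of the windows, and binding was not measured.

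In naïve ESCs, all members but Ezh1 and Phf19 were abundant. Epop, which links PRC2.1 to the Elongin BC complex, had the highest level at 312 and 297 TPM, above 97.8% of the tested genes. The core genes followed, with Rbbp4, a histone chaperone shared with other chromatin complexes, at 136 and 137 TPM, Eed at 105 and 106 TPM, Suz12 at 96.1 and 94.8 TPM and Ezh2 at 69.8 and 73.1 TPM. Mtf2 stood between Rbbp4 and Eed at 128 and 132 TPM. The PRC2.2 genes were lower, with Jarid2 at 69.1 and 69.5 TPM and Aebp2 at 35.2 and 36 TPM. Ezh2 and Jarid2 were neighbours in this order, and the lower Ezh2 library (69.8 TPM) stood next to the higher Jarid2 library (69.5 TPM). Ezh1, the alternative methyltransferase that prevails in non-dividing cells, had 5.26 and 5.27 TPM, so that it made up 6.73 to 7.01% of the summed mRNA of Ezh1 and Ezh2. Phf19, the second Polycomb-like gene, was at 0.73 and 0.61 TPM and reached 1 TPM only in 1 library each of AKO and GKO and in both primed libraries.

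**Figure D1:**
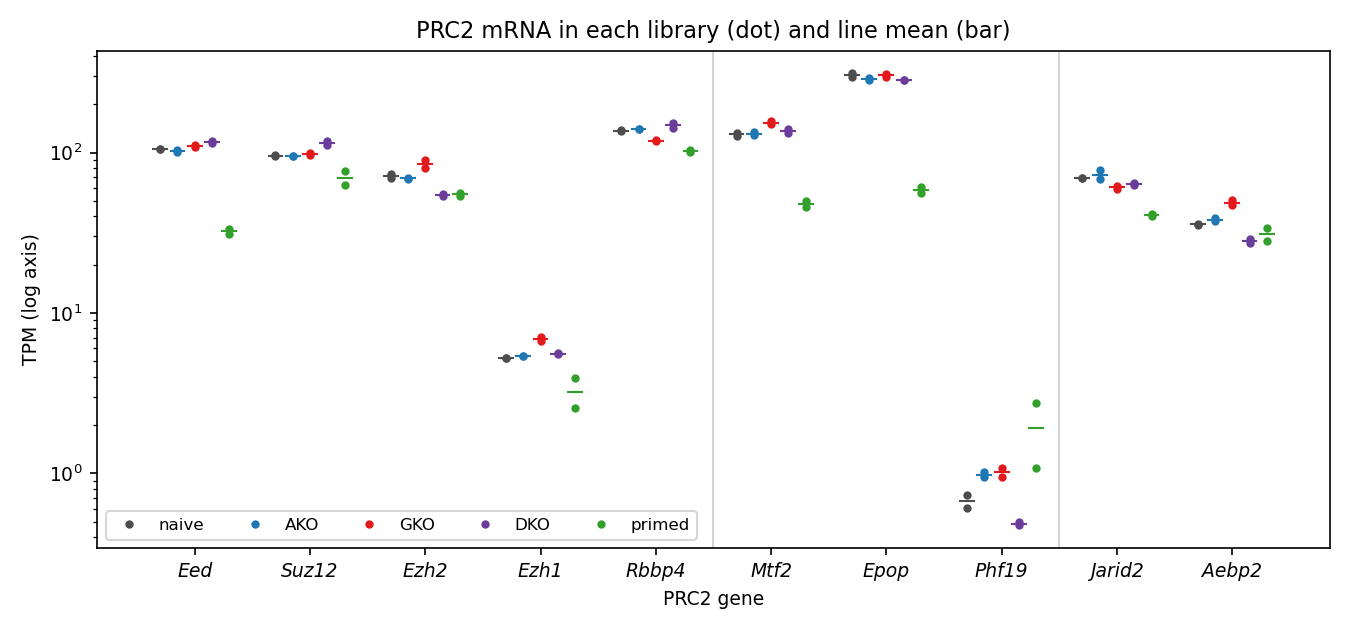
TPM of the 10 PRC2 genes (log axis) in each library (dots) and the mean of each line (bars), with vertical lines between core, PRC2.1 and PRC2.2 genes. Primed ESCs sit far below the J1 lines for Eed, Mtf2 and Epop, whereas Ezh2 and Aebp2 are highest in GKO and lowest in DKO.

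Primed ESCs were compared with naïve ESCs, from which they differ in medium and substrate as well as in pluripotent state. All 10 members differed between the lines, 9 lower and 1 higher in primed ESCs. Of all 12060 tested genes, 80.0% were called, 37.4% as higher and 42.5% as lower, by limma at a Benjamini-Hochberg adjusted p under 0.05, so that a call as such was common. The median log2(TPM + 1) difference was -0.52 over the members and -0.05 over all tested genes, which went both ways. Without regard to sign, the medians were closer, 0.664 over the members and 0.555 over all tested genes.

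Among the core genes, Eed had the largest difference. It was at 33.5 and 31.1 TPM in primed ESCs, so that every primed library was below every naïve library, and its level was 3.28-fold lower (log2 difference -1.68, SE 0.05, adjusted p = 2.87e-09, limma). The scaffold Suz12 was at 63.2 and 76.5 TPM, 1.37-fold lower (-0.45, SE 0.08, adjusted p = 5.30e-04, limma). Ezh2 was at 54.0 and 56.1 TPM, 1.3-fold lower (-0.37, SE 0.06, adjusted p = 2.33e-04, limma). Eed therefore did not keep the proportion to Suz12 and Ezh2 that it had in naïve ESCs. Ezh1 was at 2.55 and 3.90 TPM in primed ESCs (-0.59, SE 0.13, adjusted p = 0.0023, limma), and Rbbp4 at 101 and 103.5 TPM (-0.41, SE 0.04, adjusted p = 2.20e-05, limma). The calls of Suz12 and Ezh2 were lost after quantile normalization, with adjusted p of 0.0606 and 0.0524 in limma.

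The PRC2.1 genes Epop and Mtf2 fell most of all accessory genes. Epop was at 61.4 and 55.6 TPM in primed ESCs, 5.20-fold lower than in naïve ESCs (-2.36, SE 0.06, adjusted p = 1.12e-09, limma). Mtf2 was at 45.8 and 49.6 TPM, 2.72-fold lower (-1.43, SE 0.05, adjusted p = 1.70e-08, limma). For both genes the primed libraries lay far outside the range of the 8 other libraries. Phf19 was the only member that was higher, but its primed libraries were at 1.07 and 2.76 TPM. They differed from each other by 0.856 on the log2(TPM + 1) scale, more than the line means did (0.74, SE 0.22, adjusted p = 0.0116, limma). Its call was lost without naive replicate 2 (adjusted p = 0.0575), when only the lines compared were fitted (0.0704) and after quantile normalization (0.101). Among the PRC2.2 genes, Jarid2 was at 41.7 and 40.3 TPM in primed ESCs (-0.74, SE 0.06, adjusted p = 2.78e-06, limma). Aebp2 was at 28.2 and 33.8 TPM (-0.20, SE 0.08, adjusted p = 0.0417, limma), the smallest difference of the 10. That call was lost under 6 of the 9 other settings of the fit, with adjusted p up to 0.767, and without primed replicate 1 (0.271) or either naïve library.

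Setting the genes against each other within a library removes the common scale of that library. The ratio of Eed to Suz12 was 1.11 ± 0.01 (SD, n = 2) in naïve and 0.468 ± 0.087 in primed ESCs. Epop to Suz12 went from 3.19 ± 0.08 to 0.850 ± 0.173, and Mtf2 to Suz12 from 1.36 ± 0.04 to 0.687 ± 0.054. The primed and naïve libraries did not overlap for these 3 ratios. Ezh2 to Suz12, at 0.749 ± 0.031 and 0.794 ± 0.086, and Rbbp4 to Suz12, at 1.43 ± 0.02 and 1.48 ± 0.18, differed by less than the spread of the primed libraries. Ezh2 was below Eed in naïve ESCs, with a ratio of 0.676 ± 0.019, and above it in primed ESCs, with 1.71 ± 0.13. Of the summed TPM of the 5 accessory genes, Jarid2 and Aebp2 made up 19.2 to 19.7% in naïve and 39.2 to 40.7% in primed ESCs. Epop made up 69.2 to 70.8% of the summed PRC2.1 genes Mtf2, Phf19 and Epop in naïve ESCs and 51.5 to 56.7% in primed ESCs. No test was run on ratios or shares, and they describe mRNA, not assembled complexes.

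**Figure D2:**
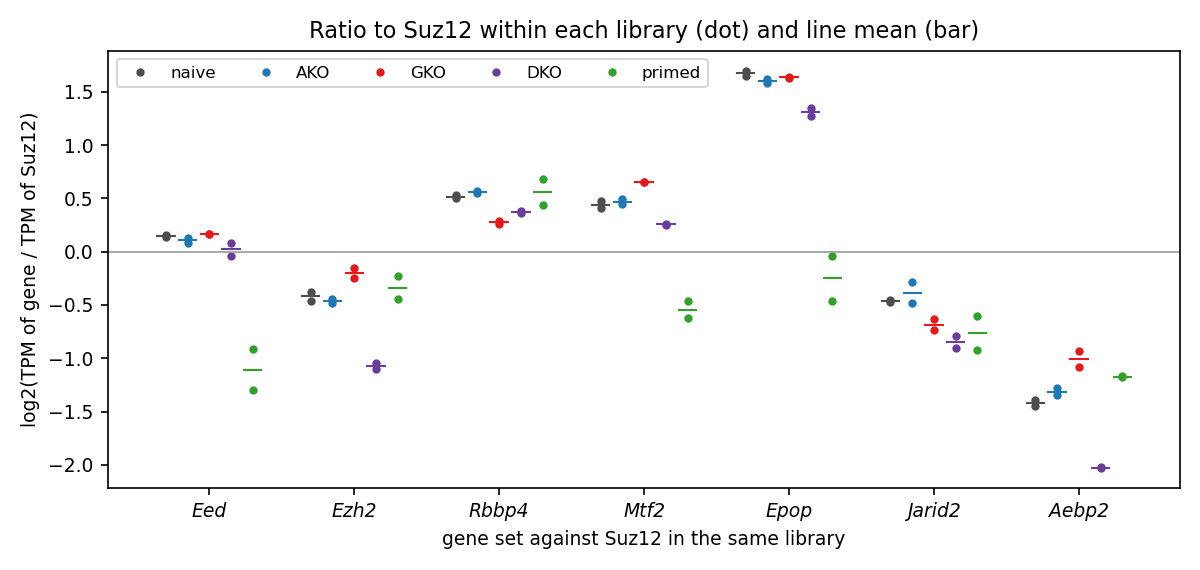
Log2 ratio of the TPM of each gene to that of Suz12 in the same library (dots), with the mean of each line (bars). Primed ESCs are lowest for Eed, Mtf2 and Epop, and DKO is lowest for Ezh2 and Aebp2.

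The Prkaa1 knockout alone left no detectable difference in PRC2 mRNA. Prkaa2, the alpha 2 gene of AMPK, was not targeted. It was at 2.705 and 2.435 TPM in AKO, beside 2.385 and 2.413 TPM in the naïve libraries. Differences between AKO and naïve ESCs ranged from -0.08 for Epop to 0.25 for Phf19, and 0 of the 10 members passed the adjusted threshold or had an unadjusted p under 0.05 in limma. Of all tested genes, 0.224% were called, 0.0663% as higher and 0.158% as lower. Ezh2 was at 68.4 and 69.7 TPM in AKO, and Suz12 at 95.1 and 94.6 TPM. Jarid2, at 68.2 and 77.5 TPM, was the member whose AKO libraries differed most. The standard errors ran from 0.04 to 0.22, so that small differences could not be seen, least of all for Phf19.

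In GKO against naïve ESCs, 5 members had small changes, 3 higher and 2 lower. Of all tested genes, 51.7% were called, 24.7% as higher and 27.1% as lower, so that 5 of 10 was near the background. The median was 0.15 over the members and -0.01 over all tested genes. Ezh2 was at 89.7 and 80.5 TPM, above both naïve libraries, 1.19-fold higher (0.25, SE 0.06, adjusted p = 0.00578, limma). Without naive replicate 1 its adjusted p was 0.0503. Aebp2 was at 47.1 and 50.3 TPM, 1.37-fold higher (0.44, SE 0.08, adjusted p = 0.00175, limma), the largest change of a member in GKO. Mtf2 was at 157 and 151 TPM, 1.19-fold higher (0.24, SE 0.05, adjusted p = 0.00441, limma). All 3 had both GKO libraries above every library of every other line.

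The lower members were Rbbp4 and Jarid2. Rbbp4 was at 119 and 117 TPM in GKO, below all other J1 libraries (-0.21, SE 0.04, adjusted p = 0.00458, limma). Jarid2 was at 59.7 and 61.7 TPM (-0.19, SE 0.06, adjusted p = 0.0265, limma). Both calls were lost after quantile normalization, with adjusted p of 0.173 for Rbbp4 and 0.215 for Jarid2, and after rescaling to the same sum, with 0.296 and 0.409. Jarid2 also lost its call without any single library of naïve ESCs or GKO, with adjusted p from 0.0611 to 0.130. Ezh1 was at 6.70 and 7.10 TPM, outside the naïve range, but did not pass the threshold (0.33, SE 0.13, adjusted p = 0.0562, limma). Eed was at 111 and 108 TPM (0.05, adjusted p = 0.395), Suz12 at 99.5 and 95.9 TPM (0.03, adjusted p = 0.751), and Epop at 311 and 297 TPM (adjusted p = 0.994), none of which was called by limma. Under other scalings Eed was called, at 0.15 after quantile normalization (adjusted p = 0.0177) and 0.17 after rescaling to the same sum (0.0171), and Ezh1 was called after rescaling (0.44, 0.0221) and when only the lines compared were fitted (0.00757).

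DKO had another pattern, in which the mRNA of the scaffold and of the catalytic gene moved apart. In DKO against naïve ESCs 4 members were called, 2 higher and 2 lower, with 46.0% of all tested genes called, 21.7% as higher and 24.3% as lower. Ezh2 was at 55.1 and 53.7 TPM in DKO, below every other J1 library and 1.31-fold lower than in naïve ESCs (-0.39, SE 0.06, adjusted p = 6.73e-04, limma). The 40 tested genes nearest to it on chromosome 6 had a median of -0.30 here, and the part of position was not tested. Suz12 was at 118 and 110.9 TPM, above every other library and 1.20-fold higher (0.26, SE 0.08, adjusted p = 0.0243, limma). The ratio of Ezh2 to Suz12 was accordingly 0.476 ± 0.012 (SD, n = 2) in DKO, against 0.749 ± 0.031 in naïve ESCs and 0.871 ± 0.044 in GKO. Aebp2 was at 29.0 and 27.2 TPM in DKO (-0.33, SE 0.08, adjusted p = 0.00828, limma). Eed was at 115 and 117 TPM (0.13, SE 0.05, adjusted p = 0.0433, limma). The share of Ezh1 in the summed methyltransferase mRNA was 9.09 to 9.49% in DKO, above every other line, as Ezh1 itself was at 5.51 and 5.63 TPM (0.07, SE 0.13, adjusted p = 0.697, limma).

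The DKO calls leaned on single libraries. Ezh2 was called under all settings tried. Eed lost its call when any 1 naïve or DKO library was left out, with adjusted p from 0.0836 to 0.169. Suz12 lost it without naive replicate 1 (0.084), naive replicate 2 (0.103) or DKO replicate 1 (0.132), and Aebp2 without naive replicate 2 (0.0507) or DKO replicate 2 (0.0596). The count of called members was then as low as 1. Mtf2, Epop, Jarid2, Phf19 and Rbbp4 did not pass the threshold in DKO, with log2 differences from -0.17 to 0.11. Some were called by limma under other settings. Rbbp4 was called at 0.21 after quantile normalization (adjusted p = 0.0115) and at 0.18 after rescaling to the same sum (0.0363). Mtf2 was called at 0.17 after quantile normalization (0.045), and Jarid2 at -0.12 when only the lines compared were fitted (0.0266).

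**Figure D3:**
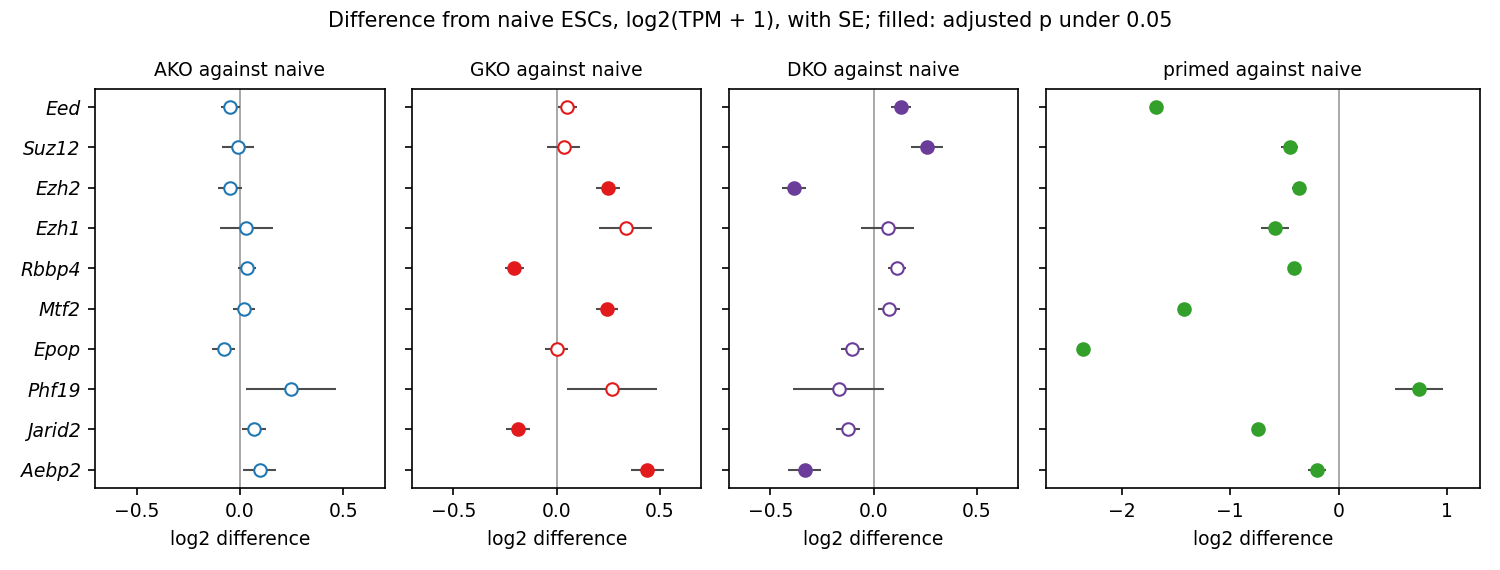
Log2 difference of each PRC2 gene from naïve ESCs in 4 panels (x axis, log2(TPM + 1) scale, wider in the primed panel), with standard errors as bars, and filled points for an adjusted p under 0.05 in limma. Ezh2 and Aebp2 lie to the right of 0 in GKO and to the left in DKO.

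GKO and DKO were then compared directly, a comparison in which both sides carry the Gys1 knockout and DKO alone the AMPK knockout. Here 5 members were called, 3 higher and 2 lower in GKO, with 43.5% of all tested genes called, 21.2% as higher and 22.4% as lower. Aebp2 was 1.73-fold higher in GKO than in DKO (0.77, SE 0.08, adjusted p = 1.17e-04, limma) and Ezh2 1.57-fold higher (0.63, SE 0.06, adjusted p = 5.57e-05, limma). The GKO and DKO libraries of these 2 genes did not overlap, and both were called under all settings tried. Rbbp4 was lower in GKO (-0.32, SE 0.04, adjusted p = 5.91e-04, limma). Mtf2 was higher (0.17, SE 0.05, adjusted p = 0.0295) and Suz12 lower (-0.23, SE 0.08, adjusted p = 0.0443) by limma. Both of these calls were lost without GKO replicate 1, GKO replicate 2 or DKO replicate 2, which left 3 called members each time. Suz12 was lost without DKO replicate 1 as well (0.196) and under 6 of the 9 other settings of the fit, with adjusted p up to 0.165.

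In DKO against AKO, which adds the Gys1 knockout to the AMPK knockout, 5 members were called, 2 higher and 3 lower, with 46.3% of all tested genes called, 22.4% as higher and 23.9% as lower. Eed (0.18, adjusted p = 0.012) and Suz12 (0.27, adjusted p = 0.0213) were higher in DKO by limma. Ezh2 (-0.34, adjusted p = 0.00135), Jarid2 (-0.19, adjusted p = 0.0263) and Aebp2 (-0.43, adjusted p = 0.00233) were lower by limma. Leaving out any 1 of the 4 libraries brought the count to 3, with the calls of Eed, Suz12 or Jarid2 lost. Jarid2 was also lost after quantile normalization (-0.11, adjusted p = 0.144), after rescaling to the same sum (-0.11, 0.183) and when only the lines compared were fitted (0.0509).

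An interaction of the 2 knockouts was tested between the lines, as the difference of GKO from naïve ESCs minus that of DKO from AKO. The unlike Prkaa1 levels of AKO and DKO enter this difference as well. The interaction was called for 3 members, 2 above and 1 below 0, with 25.8% of all tested genes called, 12.8% above and 13.1% below. Ezh2 had an interaction of 0.59 (SE 0.08, adjusted p = 0.00122, limma), made of a rise of 0.25 without the AMPK knockout and a fall of 0.34 with it. Aebp2 had 0.87 (SE 0.11, adjusted p = 9.61e-04, limma), from a rise of 0.44 and a fall of 0.43. Rbbp4 had -0.28 (SE 0.06, adjusted p = 0.0114, limma), from a fall of 0.21 and a difference of 0.08 that was not called. The interaction of Rbbp4 was lost without naive replicate 2 (adjusted p = 0.0504) and after rescaling to the same sum (0.0705). The other members, Jarid2 among them at 0.0046 (adjusted p = 0.978), did not pass in limma.

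Ezh2 and Aebp2 are both on chromosome 6, at chr6:47507073-47572331 on the minus strand and chr6:140546644-140713010 on the plus strand of GRCm39. The 40 tested genes nearest to each member were therefore described after these values were seen. Around Ezh2, the neighbours had a median log2 difference of -0.30 in DKO against naïve ESCs, with 8 of 40 above 0, and of 0.11 in GKO. In GKO against DKO their median was 0.38, with 36 of 40 above 0, beside 0.63 for Ezh2. Around Aebp2, the medians were -0.54 in DKO, -0.06 in GKO and 0.40 in GKO against DKO, beside 0.77 for Aebp2. Whole chromosome 6, with 550 tested genes, had medians of 0.14 in GKO and -0.01 in DKO. Neighbours of Jarid2 on chromosome 13 had medians of -0.18 in GKO and -0.21 in DKO, beside -0.19 and -0.12 for the gene. Around Suz12 on chromosome 11 the median in DKO was -0.04, beside 0.26 for the gene. In primed ESCs, the neighbours of Epop, Eed and Mtf2 had medians of 0.11, 0.22 and -0.07, while these genes were lower by far. The medians of chromosomes 6 and 11 in primed ESCs were -0.39 and 0.30, beside -0.37 for Ezh2 and -0.45 for Suz12. The part of chromosomal position in the members' values was not tested.

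**Figure D4:**
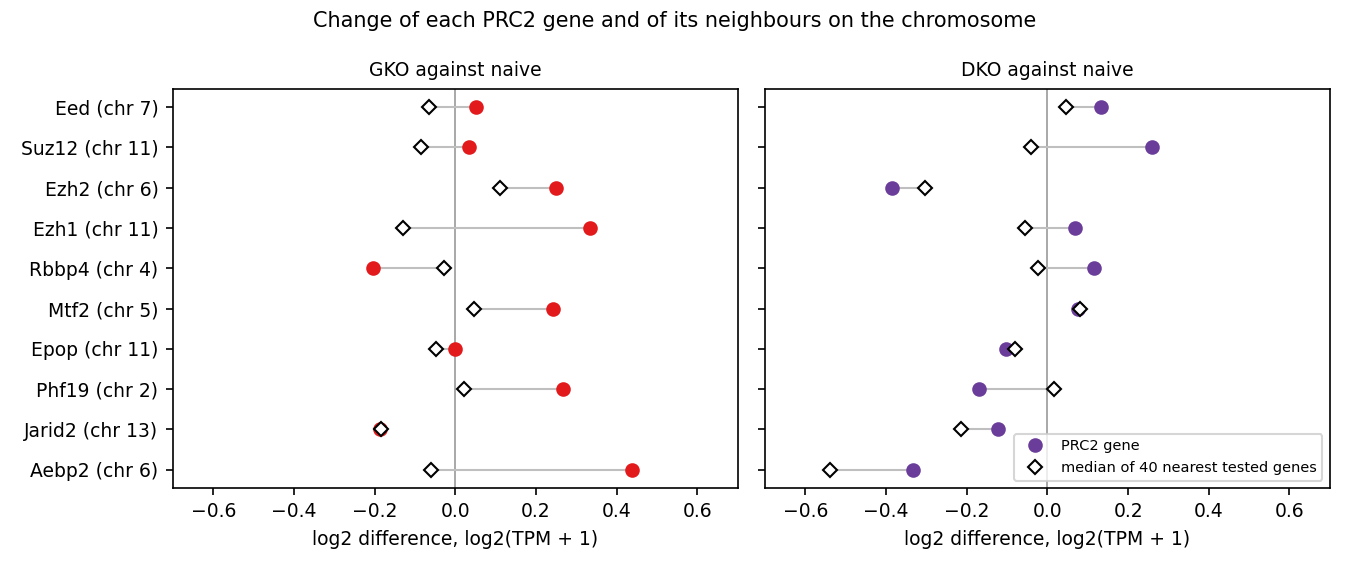
Log2 difference of each PRC2 gene (filled) and the median of the 40 nearest tested genes on its chromosome (open diamonds), in GKO and in DKO against naïve ESCs. In DKO the neighbours of Ezh2 and Aebp2 lie at -0.30 and -0.54, on the same side of 0 as the genes, and in GKO the neighbours of Aebp2 lie at -0.06.

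Eed, Mtf2 and Epop were the members whose line means spanned at least 1 on the log2(TPM + 1) scale, 1.81, 1.67 and 2.36 between their lowest line, primed ESCs, and their highest, which was DKO, GKO and naïve ESCs respectively. For these, the tested genes with the most similar profile over the 10 libraries were sought by the root mean square difference of centred log2(TPM + 1) values. The nearest to Eed were Arih2 (0.064), Slc25a36 (0.0658) and Mlh3 (0.0692). The nearest to Mtf2 were Rps6ka1 (0.0463), Atp11b (0.0643) and Rnf7 (0.074). The nearest to Epop were B4galt6 (0.0565), Pla1a (0.0775) and Csf2ra (0.0859). None of these 9 genes is a PRC2 gene, and the likeness is dominated by the gap between primed ESCs and the J1 lines. The members with a span below 1 ran from 0.53 for Rbbp4 to 0.92 for Ezh1.

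The remaining PRC2 subunits were Rbbp7, the relative of Rbbp4, and the PRC2.1 genes Phf1 and Lcor. Lcor, the gene of a PRC2.1 subunit that excludes Epop, was at 5.50 and 5.01 TPM in the naïve libraries, at 2.56 and 2.86 TPM in those of GKO, at 4.18 and 3.84 TPM in those of DKO and at 3.15 and 3.09 TPM in the primed ones. It was lower in each of GKO (-0.75, adjusted p = 1.22e-04), DKO (-0.32, adjusted p = 0.013) and primed ESCs (-0.60, adjusted p = 1.31e-04) than in naïve ESCs by limma, comparisons which share the naïve libraries. The 394 tested genes of chromosome 19, where Lcor lies, had medians of -0.40, -0.27 and -0.45 in these comparisons, and the part of this shift was not tested. Phf1, a Polycomb-like gene, was higher in DKO (0.30, adjusted p = 0.0154) and lower in primed ESCs (-0.40, adjusted p = 0.00153) by limma. Rbbp7 was called among these 4 comparisons only in primed ESCs (-0.43, adjusted p = 0.0017, limma), at 200 and 157 TPM against 239 and 239.7 TPM.

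PRC1, which ubiquitinates histone H2A and works with PRC2 at shared targets, was covered by 26 genes, of which 24 were tested. Of these, 12 were called in GKO against naïve ESCs, 2 higher and 10 lower, and 17 in DKO, 4 higher and 13 lower. All tested genes were called at 51.7% in GKO and 46.0% in DKO, so that the GKO count was at the background. The median log2 difference over the list was -0.11 in GKO and -0.28 in DKO, beside -0.01 over all tested genes in each. Cbx7, the chromodomain protein that reads H3K27me3 in ESCs, was at 95.9 and 95.8 TPM in the naïve libraries, at 57.9 and 58.8 TPM in those of GKO, at 72.7 and 74.1 TPM in those of DKO and at 12.0 and 12.1 TPM in the primed ones. It was lower in GKO (-0.71, adjusted p = 3.13e-06), in DKO (-0.38, adjusted p = 8.76e-05) and most in primed ESCs (-2.89, adjusted p = 4.60e-11) by limma. Pcgf6, which defines a variant PRC1, was likewise lower in GKO (-0.70), DKO (-0.55) and primed ESCs (-1.3), called by limma each time. It shares chromosome 19 and its lower medians with Lcor. Cbx7 lies on chromosome 15, whose medians were -0.15 in GKO, -0.16 in DKO and -0.21 in primed ESCs. The part of these shifts was not tested. In AKO, 0 PRC1 genes were called.

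In primed ESCs, 21 of the 24 PRC1 genes were called, 9 higher and 12 lower, near the 80.0% of all tested genes, 37.4% higher and 42.5% lower. The polyhomeotic genes Phc1 (85.3 to 217 TPM, 1.31) and Phc2 (14.6 to 31.6 TPM, 1.07), the E3 ligase Ring1 (4.48 to 11.6 TPM, 1.21), and the variant PRC1 genes Auts2 (2.78 to 16.8 TPM, 2.23) and Yaf2 (10.3 to 31.8 TPM, 1.54) were higher, given as line means and log2 differences. The E3 ligase Rnf2 was near its naïve level (55.5 and 51.0 TPM, -0.12, adjusted p = 0.0397, limma), and its sign turned after quantile normalization (0.09) and rescaling to the same sum (0.05). In GKO against DKO, 13 of 24 were called, 7 higher and 6 lower, with 43.5% of all tested genes called, 21.2% as higher and 22.4% as lower. E2f6 (0.67), Yaf2 (0.66) and Phc2 (0.64) were the largest among the higher, and Ring1 (-0.73) and Kdm2b (-0.50), which brings PRC1 to CpG islands, among the lower.

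Enzymes that oppose PRC2 were set beside it. Of the H3K27 demethylases, Kdm6a was lower in GKO (-0.63), DKO (-0.24) and primed ESCs (-0.33), and Kdm6b was higher in GKO (0.25) and primed ESCs (1.46, from 9.03 to 26.6 TPM), all called by limma. The median of the X chromosome, which carries Kdm6a, was -0.06 in GKO, -0.26 in DKO and -0.28 in primed ESCs. Uty, the Y-linked relative, was at 2.36 and 2.35 TPM in GKO and 7.05 and 6.24 TPM in DKO, and was listed at 0 in the other 6 libraries. Of 9 MLL (COMPASS) genes, whose complexes methylate lysine 4 of histone H3, 5 were called in GKO, 2 higher and 3 lower, 5 in DKO, 3 higher and 2 lower, and 9 in primed ESCs, 1 higher and 8 lower, with 51.7%, 46.0% and 80.0% of all tested genes called. Their shared subunit Wdr5 was higher in GKO (0.50) and DKO (0.33) and lower in primed ESCs (-1.42, from 118 to 43.3 TPM). Of 5 H3K36 methyltransferases, whose mark inhibits PRC2, Nsd1 was lower in GKO (-0.73), DKO (-0.32) and primed ESCs (-1.19), while Nsd2 was higher in GKO (0.48) and primed ESCs (1.42). In GKO and DKO 2 of these 5 were called, and in primed ESCs 4. None of these genes was called in AKO.

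The Hox genes are the classical targets of PRC2, held silent in ESCs under H3K27me3. All 39 were listed and 16 passed the filter on low values, 5 of them through 1 line alone, so that no count of calls is given. Hoxa10 was at 0.63 and 0.54 TPM in the naïve libraries, 5.26 and 4.95 TPM in GKO and 1.45 and 1.77 TPM in DKO. It reached 1 TPM in GKO and DKO alone, and Hoxa9, at 1.504 and 1.261 TPM in GKO and at most 0.434 TPM elsewhere, in GKO alone, so that no test is given for either. Hoxa7, which passed in all 4 J1 lines, was at 1.87 and 2.18 TPM in the naïve libraries and 4.10 and 4.57 TPM in GKO (0.82, SE 0.10, adjusted p = 2.26e-04, limma). The 11 Hoxa genes together summed to 5.75 and 6.45 TPM in the naïve libraries, 15.4 and 14.8 TPM in GKO and 7.58 and 7.89 TPM in DKO. The 9 Hoxc genes instead summed to 24.96 and 22.5 TPM in the naïve and 25.9 and 26.6 TPM in the AKO libraries, but to 14.6 and 15.7 TPM in GKO and to 12.9 and 13.1 TPM with both knockouts. The Hoxa and Hoxc clusters thus lay on opposite sides of the naïve level in GKO. The tested genes of chromosome 6, with Hoxa, and of chromosome 15, with Hoxc, had medians of 0.14 and -0.15 in GKO. In DKO these medians were -0.01 and -0.16, and the part of these shifts was not tested.

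In primed ESCs, Hoxb1 was at 15.6 and 6.96 TPM and Hoxb2 at 19.0 and 6.41 TPM, against at most 0.052 TPM in naïve ESCs. Both, with Hoxa2 and Hoxa3, reached 1 TPM in primed ESCs alone, and their levels are given without a test. The primed libraries differed here by more than 2-fold, and the 10 Hoxb genes summed to 39.0 and 14.3 TPM. Hoxc genes were nearly absent, with summed levels of 0.38 and 0.318 TPM. Of 25 further regulators listed as Polycomb targets, not all of them silent in these lines, 13 passed the filter, 8 of them through 1 line alone. Irx3, with a mean of 0.0655 TPM in naïve and 33.7 TPM in primed ESCs, and Sox1, with 0.618 and 28.4 TPM, both active in early neural tissue, were among these, and their levels are given without a test. Cdkn2a, the cell cycle inhibitor locus, reached 1 TPM in all lines and was lower in primed ESCs (-4.09, from 28.6 to 0.785 TPM, adjusted p = 3.61e-08, limma). Cdx2, a trophectoderm factor, was higher in GKO (1.13, adjusted p = 2.83e-04) and DKO (1.11, adjusted p = 4.17e-04) than in naïve ESCs by limma. The 5 trophectoderm markers, Cdx2 among them, summed to 31.3 to 31.5 TPM in naïve ESCs, 40.9 to 41.4 TPM in GKO and 36.6 to 38.3 TPM in DKO, and 4 fibroblast or feeder markers to 2.76 to 3.33, 7.97 to 9.22 and 2.33 to 2.43 TPM. Of these 4, Thy1 was at 3.004 and 2.442 TPM in the naïve libraries and 7.137 and 8.482 TPM in GKO. Col1a1, Col1a2 and Col3a1 were each at most 0.739 TPM in GKO. The part of other cell types in these values was not tested. H3K27me3 was not measured in these libraries.

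**Figure D5:**
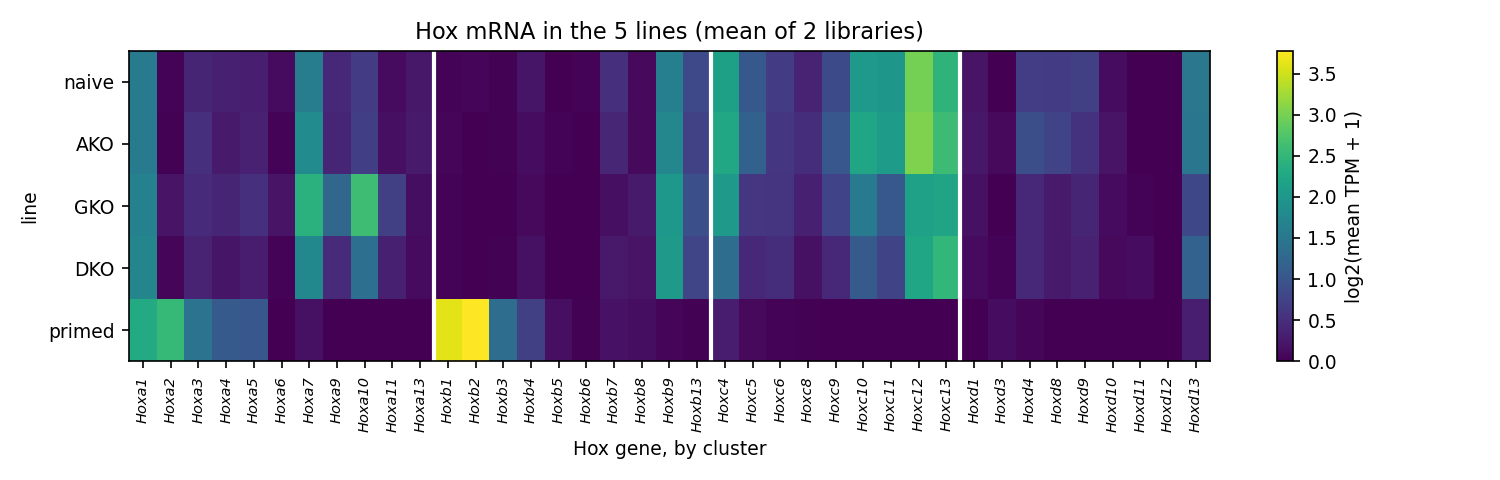
Level of the Hox genes (columns, by cluster) in the 5 lines (rows), as log2 of the mean TPM of 2 libraries plus 1. GKO is brightest for Hoxa10 (5.11 TPM), naïve ESCs and AKO for Hoxc12, and primed ESCs for Hoxb1 and Hoxb2.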

How the data were processed

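RNA of 10 libraries, 2 for each of 5 mouse ESC lines, was sequenced by the authors, and the sample labels gave the line and replicate number. The deposited values are TPM per protein-coding gene. According to the methods, the authors trimmed reads, aligned them with STAR and estimated TPM with RSEM. The submitters' processing notes name Trim Galore 0.6.6, STAR 2.7.9a, RSEM 1.3.3 and the builds GRCm38 and GRCh38, whereas the methods name GRCm39. The build behind the tables is thus uncertain, and genes were matched to positions by symbol (96.2% of tested genes). TPM does not keep depth, and RSEM divides reads among similar transcripts, so that near-identical genes are less certain.

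The 12060 genes that reached 1 TPM in 2 or more libraries were tested on log2(TPM + 1) with limma 3.58.1 in R 4.3.3, with 1 mean per line, an intensity trend and Benjamini-Hochberg adjustment over all tested genes in each of 7 comparisons (threshold 0.05). A log2 difference on this scale understates changes of low genes. Fold differences are ratios of mean TPM. The fit was tested on simulated data. With 2 libraries per line, an exact two-sided permutation test of 1 gene cannot go below p = 0.333. The named genes were the 10 members, the targeted genes, in each other list the largest called changes with at least 1 TPM (up to 3 per direction), and the 3 genes nearest in profile. The members and lists were chosen with earlier results of these data known. Alternatives were pseudocount 0.1, no filter, a minimum mean of 5 TPM, quantile, median-ratio and same-sum scaling, no trend, a replicate block, only the lines compared, and each library left out. Promoter motifs and chromosomal neighbours were described after the values were seen.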

Additional observations from a re-analysis of the deposited data

Results flagged for a closer look

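For 3 PRC2 genes, the difference of GKO from naïve ESCs was unlike that of DKO from AKO. The interaction tests this difference itself, by limma over 2 libraries in each of 4 lines. It was 0.59 on the log2 scale for Ezh2 (adjusted p = 0.00122), with a rise of 0.25 in GKO over naïve ESCs and a fall of 0.34 in DKO against AKO. For Aebp2 it was 0.87 (adjusted p = 9.61e-04, limma), and both DKO libraries were below both AKO libraries while both GKO libraries were above both naïve libraries. For Rbbp4 it was -0.28 (adjusted p = 0.0114, limma). Of all tested genes, 25.8% had a called interaction. The 40 tested genes nearest to Ezh2 and to Aebp2 had median interactions of 0.35 and 0.51, and those nearest to Rbbp4 of -0.07. Y-linked RNA was found in GKO and DKO alone, so it cannot be told apart here from the Gys1 knockout. Prkaa1 mRNA was lower in DKO than in AKO, which cannot be told apart from the Gys1 knockout either. The part of chromosomal position in these values was not tested.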

How the results depend on the processing

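Counts of called PRC2 genes are out of 10. After quantile normalization, 6 members were called in primed ESCs instead of 10, and without the intensity trend 3 instead of 5 in GKO against DKO. When only the lines compared were fitted, 7 instead of 3 had a called interaction. With 1 library left out at a time, the count ranged from 3 to 4 in GKO against naïve ESCs (3 without naive replicate 1), from 1 to 3 in DKO (2 without naive replicate 1 or DKO replicate 1, 1 without naive replicate 2), from 8 to 10 in primed ESCs, from 3 to 4 in GKO against DKO and from 2 to 3 for the interaction. It was 3 in DKO against AKO whichever library was left out. A lone library was then assumed to vary like the other lines. The cause of these shifts was not tested.

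The sign turned for the following differences. Epop in GKO was -0.0009 and became 0.12 under quantile, 0.0033 under median-ratio and 0.12 under same-sum scaling. Epop in DKO became 0.0093 under quantile normalization, and in DKO against AKO 0.097 under quantile and 0.059 under same-sum scaling. Ezh1 in DKO against AKO became -0.026 and Rnf2 in primed ESCs 0.086 under quantile normalization, and Rnf2 0.052 under same-sum scaling. With 1 library left out, Epop in GKO ranged from -0.037 to 0.035, Suz12 in AKO from -0.017 to 0.0010, Jarid2 in AKO from -0.022 to 0.16, Mtf2 in AKO from -0.0069 to 0.044, and the interactions of Jarid2 from -0.087 to 0.096 and of Epop from -0.012 to 0.060. Same-sum scaling moved the median of all genes in primed ESCs by 0.16.

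Replicate numbers did not pair the libraries, since deviations of same-numbered libraries correlated between -0.128 and 0.078. With the replicate block, 6 members were called in GKO, 3 in DKO, 10 in primed ESCs, 4 in GKO against DKO, 5 in DKO against AKO, 3 for the interaction and 0 in AKO. The calls that changed were Ezh1 in GKO (adjusted p = 0.0493 with the block, limma), Eed in DKO (0.0628) and Suz12 in GKO against DKO (0.0606). Depth is unknown, and with 2 libraries per line small differences in AKO could not be seen.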
